A study of Mus musculus with 6 samples.

Results

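The genes described here are the 5 components of the mouse Fc gamma receptor system that binds IgG at the surface of macrophages and the neonatal Fc receptor: Fcgr1, Fcgr2b, Fcgr3, Fcgr4, Fcer1g and Fcgrt. They are 6 of the 24061 gene symbols in the count table and were chosen by symbol, from the family they belong to. All 6 had a row and passed the filter on low counts, which left 13348 genes for testing.

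Fc gamma receptors bind the constant part of IgG and so let a macrophage recognise antibody-coated particles and immune complexes. Fcgr1 (CD64), Fcgr3 (CD16) and Fcgr4 are activating receptors that signal through Fcer1g, a shared chain carrying an activating motif that is phosphorylated by Src-family kinases and then bound by the kinase Syk. Fcgr2b (CD32) carries an inhibitory motif of its own, which recruits phosphatases such as the product of Inpp5d, and Fcgrt encodes the neonatal Fc receptor FcRn, which pairs with beta-2-microglobulin (B2m) and returns internalised IgG from endosomes to the cell surface.

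The study sorted macrophages of the mouse mammary gland into a subset with the surface protein Lyve-1 and a subset without it, and asked how their transcription differed. The libraries came from CD45+CD11b+F4/80+ cells, 3 of the Lyve-1- subset and 3 of the Lyve-1+ subset, of the inguinal glands of FVB/N mice, with cells of 4 mice pooled in each library. Mice were 6 weeks old for replicate 1 of each subset and 10 weeks old for the other replicates. An antibody against CD16 and CD32 was used in the staining to block Fc receptors, and CD64 was not part of the sort gate for these libraries. The labels do not say whether a Lyve-1- and a Lyve-1+ library with the same number came from the same mice.

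The libraries held from 6478007 to 21406839 counts. Lyve1 itself had 17 to 75 counts in the Lyve-1- libraries and 4735 to 30871 in the Lyve-1+ libraries. The genes of the other sort markers did not differ past the threshold: Adgre1 (F4/80, listed as Emr1) was at 319 ± 63.1 CPM (counts per 1000000 of the scaled library) in Lyve-1- cells and 260 ± 71.0 CPM in Lyve-1+ cells (SD, n = 3), Itgam (CD11b) at 931 ± 266 and 984 ± 106 CPM, and Ptprc (CD45) at 1404 ± 255 and 913 ± 246 CPM. Some libraries stood apart in counts on olfactory receptor genes, which macrophages are not known for. Lyve-1- replicate 3 showed reads on 652 of 1112 such genes, Lyve-1+ replicate 1 on 370 and Lyve-1+ replicate 2 on 134. The remaining libraries showed them on 4 to 34. In counts per kilobase, Lyve-1- replicate 3 was at 2.64, Lyve-1+ replicate 1 at 1.02 and Lyve-1+ replicate 2 at 1.17. By that measure Lyve-1+ replicate 2 was above Lyve-1+ replicate 1. If the same number of counts per kilobase fell on the Fc receptor genes of Lyve-1- replicate 3, it would be 10.1% of the 33 counts of Fcgr4 there and at most 2.22% of the counts of any other member. The subset log2 fold changes of the members are therefore given with and without Lyve-1- replicate 3 and Lyve-1+ replicate 1. This pair had reads on the most olfactory receptor genes, and Lyve-1+ replicate 2 was kept. Without the pair, the Lyve-1- subset keeps its 6-week library and the Lyve-1+ subset does not. Values without the pair thus mix the subset with age.

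Of the family, 5 of the 6 genes lie on chromosomes 1 and 3 and Fcgrt lies on chromosome 7 (GRCm38, GENCODE M21). Fcgr2b (chr1:170958617-170976547, minus strand), Fcgr4 (chr1:171018920-171029761, plus strand) and Fcgr3 (chr1:171051174-171064935, minus strand) are neighbours, separated by 42.4 and 21.4 kb with no other protein-coding gene between them. Fcer1g (chr1:171229572-171234365, minus strand) follows 164.6 kb further on, after 7 other protein-coding genes. Fcgr1 (chr3:96282909-96293969, minus strand) and Fcgrt (chr7:45092990-45103851, minus strand) stand alone.

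Fcgr2b and Fcgr3 share part of their coding sequence, which matters for reading their counts. The longest identical run in their transcripts is 129 nt long, all of it coding, and crosses the junction of the third and the fourth exon in both genes. It is shown once, since both copies are the same, with the bases of the fourth exon in capitals (Fcgr2b at chr1:170966674-170968081 and Fcgr3 at chr1:171054167-171057792, minus strand, intron included in these spans).
Fcgr2b and Fcgr3: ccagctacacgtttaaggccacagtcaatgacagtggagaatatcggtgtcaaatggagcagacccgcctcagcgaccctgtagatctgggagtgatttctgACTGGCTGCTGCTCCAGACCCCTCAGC
Of the 50-nt stretches in Fcgr3 transcripts, the length of 1 read, 10.2% also occur in Fcgr2b, and of those in Fcgr2b transcripts 4.48% occur in Fcgr3. No 50-nt stretch of Fcgr1, Fcgr4, Fcer1g or Fcgrt transcripts occurs in another annotated gene. How reads that fit both genes were assigned is not given in the sources used here, so the counts of both genes over this stretch are uncertain.

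The promoter of Fcgrt, the member whose level separated the subsets, is shown with those of Fcgr2b and Fcgr3, whose levels moved together, and that of Fcgr1. A further Fcgr3 start a few bases away is not shown. Each window runs from 250 bases before to 50 bases after the RefSeq transcription start (GRCm38.p6), on the gene's own strand. Capitals mark matches, on either strand, to GAGGAA, the core bound by the macrophage factor PU.1, or to TTCNNNGAA, the gamma-interferon activation site.
Fcgrt, chr7:45103773-45104072: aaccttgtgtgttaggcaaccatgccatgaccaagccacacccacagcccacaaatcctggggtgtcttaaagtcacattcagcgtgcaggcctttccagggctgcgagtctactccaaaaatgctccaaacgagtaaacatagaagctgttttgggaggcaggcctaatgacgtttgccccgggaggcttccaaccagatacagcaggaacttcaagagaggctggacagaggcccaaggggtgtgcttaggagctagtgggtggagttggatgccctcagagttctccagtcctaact
Fcgr2b, chr1:170976022-170976321: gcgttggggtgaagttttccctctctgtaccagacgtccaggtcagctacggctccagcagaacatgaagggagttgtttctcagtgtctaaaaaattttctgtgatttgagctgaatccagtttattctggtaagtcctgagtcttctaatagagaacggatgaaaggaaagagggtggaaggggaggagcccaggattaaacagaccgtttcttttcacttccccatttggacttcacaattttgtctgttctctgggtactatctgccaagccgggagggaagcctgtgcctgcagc
Fcgr3, chr1:171059354-171059653: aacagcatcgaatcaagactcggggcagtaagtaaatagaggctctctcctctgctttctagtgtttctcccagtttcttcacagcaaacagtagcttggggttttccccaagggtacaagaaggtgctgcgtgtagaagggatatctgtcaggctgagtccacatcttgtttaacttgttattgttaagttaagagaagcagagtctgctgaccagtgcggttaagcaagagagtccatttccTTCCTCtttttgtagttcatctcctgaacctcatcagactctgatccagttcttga
Fcgr1, chr3:96293920-96294219: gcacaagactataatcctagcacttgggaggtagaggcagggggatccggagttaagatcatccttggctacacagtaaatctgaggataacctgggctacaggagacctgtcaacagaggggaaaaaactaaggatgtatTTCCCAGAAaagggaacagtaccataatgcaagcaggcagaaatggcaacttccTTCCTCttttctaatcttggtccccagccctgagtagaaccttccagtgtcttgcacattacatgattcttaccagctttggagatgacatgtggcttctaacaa
GAGGAA was found in the windows of Fcgr1 (starting 55 bases before the start site), Fcgr3 (6 bases before) and Fcgr4 (22 bases before), each on the opposite strand, and not in those of Fcgr2b, Fcer1g or Fcgrt; it occurs in 28.3% of all 32851 promoter windows. TTCNNNGAA was found in the Fcgr1 window alone among the members, 109 bases before the start site, and in 8.30% of all windows. The E-box CACGTG was in no member's window and in 7.15% of all. These matches describe the letters only.

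Across the subsets, Fcgrt was the 1 member of 6 that passed the test. It rose 5.65-fold in Lyve-1+ cells, and its lowest Lyve-1+ value exceeded its highest Lyve-1- value. Among all genes tested, 0.45% were called higher in Lyve-1+ cells at an adjusted p under 0.05, 0.629% were called in either direction, and in 7.82% the Lyve-1+ values all exceeded the Lyve-1- values. The activating receptors, the inhibitory receptor and the shared chain did not pass the test, and their subsets overlapped. Of the 6 members 5 had a positive log2 fold change, with a median of 0.33 beside -0.01 for all genes tested. Both changed with Lyve-1- replicate 3 and Lyve-1+ replicate 1 left out, to 2 of 6 positive and a median of -0.12. That setting also leaves the subsets unequal in age. Without Lyve-1- replicate 3 the count was 3 of 6 and the median 0.16. Without Lyve-1+ replicate 1 Fcgr4 alone was negative (-0.26), and the median was 0.06. Counts in bulk libraries cannot tell fewer cells with a transcript from less transcript per cell. The plot of CPM by library shows these values.

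**Figure D1:**
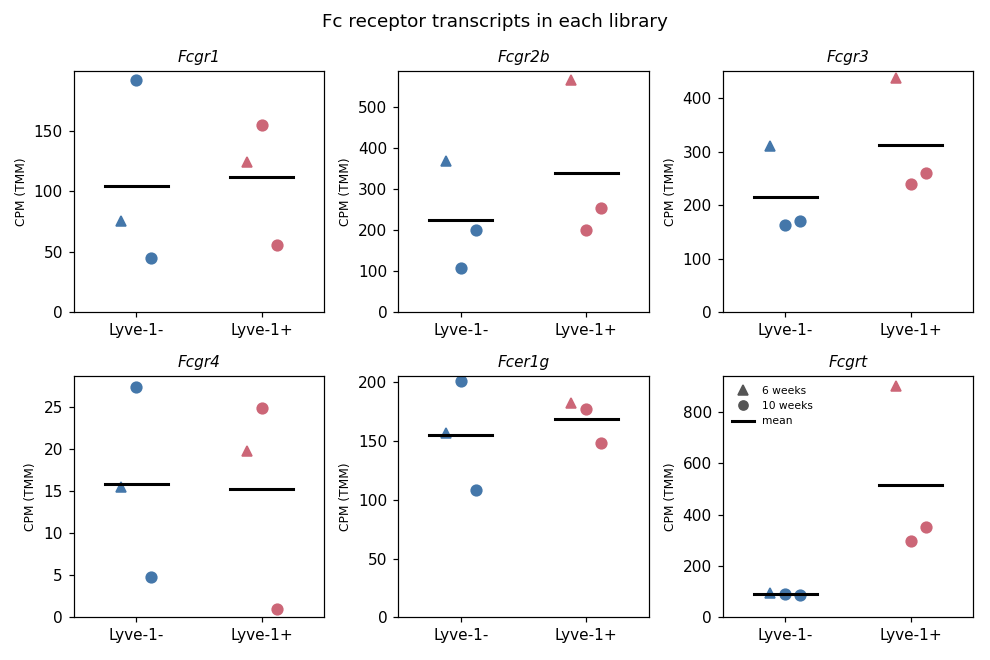
CPM (linear axes from 0, scaled by TMM) of the 6 Fc receptor transcripts, with 1 point per library (triangles, 6 weeks; circles, 10 weeks) and the mean of 3 libraries as a bar. Fcgrt is the 1 panel in which the subsets do not overlap, and Fcgr2b and Fcgr3 have their highest point at 6 weeks in each subset.

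Fcgrt was at 95.9, 89.7 and 88.3 CPM in Lyve-1- replicates 1, 2 and 3, and at 899, 298 and 351 CPM in Lyve-1+ replicates 1, 2 and 3. The Lyve-1- libraries were close to each other, whereas the 6-week Lyve-1+ library was well above both 10-week ones. The log2 fold change was 2.50 (SE 0.39; 95% interval 1.67 to 3.33; adjusted p = 0.012, edgeR). Applied to the edgeR values, the stricter limits used in the study (an adjusted p below 0.01 with a log2 change of 1 to 10 in size) were met by 0.112% of genes and not by Fcgrt. Applied to DESeq2, the tool used in the study, they were met by 1.72% of genes and, of the members, by Fcgrt alone (log2 fold change 2.46, adjusted p = 1.53e-08). The study named Fcgrt in a list chosen on these same libraries, so its direction here is not independent evidence.

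Fcgrt was called in 16 of 18 alternatives, with adjusted p-values (edgeR or DESeq2) from 1.22e-11 to 0.144 over all 18. One of the calls lost was without Lyve-1- replicate 3, where the log2 fold change was still 2.47 but the adjusted p was 0.0762 (edgeR). The other was without both that library and Lyve-1+ replicate 1, where the values were 1.78 and 0.144. All 18 log2 fold changes were positive, and leaving out 1 library at a time gave 1.84 to 2.75. At 10 weeks alone, with 2 libraries a subset, the log2 fold change was 1.86 and passed the test (adjusted p = 0.0462, edgeR). At 6 weeks the single libraries differed 9.38-fold and at 10 weeks the means differed 3.64-fold. The change of the log2 fold change from 6 to 10 weeks was -1.36 (SE 0.56; unadjusted p = 0.0268, adjusted p = 0.976, edgeR interaction test with 2 residual degrees of freedom), so the subset difference was not shown to differ between the ages; 0.00749% of genes were called in that test and no member was (613 genes had an unadjusted p under 0.05).

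Among the marker sums of other cells, those of fibroblasts and neutrophils also separated the subsets. The 6 fibroblast markers, all with a positive log2 fold change and none called by edgeR, while DESeq2 called 3 higher, summed to 454 to 591 CPM in Lyve-1- and 888 to 3506 CPM in Lyve-1+ libraries, with none at 0. The highest fibroblast sum was in Lyve-1+ replicate 3 and the highest Fcgrt level in Lyve-1+ replicate 1, whose fibroblast sum was 1131 CPM. The neutrophil markers, 9 of 10 with a row and 6 of 7 tested members with a positive log2 fold change, summed to 133 to 220 and 267 to 625 CPM, with Camp at 0 in every Lyve-1+ library and in 2 Lyve-1- libraries. Endothelial markers, of cells that also use FcRn, overlapped at 62.8 to 157 and 73.7 to 226 CPM, with none at 0 throughout a subset. The 9 macrophage markers summed to 4072 to 5499 CPM in Lyve-1- and 6032 to 9206 CPM in Lyve-1+ libraries, and 2 of them, C1qa and Lyve1, were called higher. These sums include Lyve1, on whose product the cells were sorted, at means of 5.18 CPM in Lyve-1- and 1245 CPM in Lyve-1+. Without Lyve1, the sums of the other macrophage markers overlapped between the subsets, so the separation rested on the gene of the sort. The part of other cells in the Fcgrt difference was not tested.

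None of the activating receptors was called between the subsets, and their intervals were wide. Fcgr1, the high-affinity receptor often used to mark macrophages, was at 75.8, 192 and 44.9 CPM in Lyve-1- replicates 1, 2 and 3 and at 124, 155 and 55.6 CPM in the Lyve-1+ replicates. The 10-week libraries alone spanned the whole range within each subset. The log2 fold change was 0.09 (SE 0.51; 95% interval -1.03 to 1.22; edgeR adjusted p = 1.00). Its sign changed when libraries were left out, and it was -0.37 without Lyve-1- replicate 3 and Lyve-1+ replicate 1.

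Fcgr3, a low-affinity activating receptor, was at 310, 164 and 171 CPM in the Lyve-1- libraries and at 438, 240 and 261 CPM in the Lyve-1+ libraries. The 6-week library was the highest in each subset, and 7 of the 9 pairs of a Lyve-1+ and a Lyve-1- library were higher in Lyve-1+. The log2 fold change was 0.54 (SE 0.33; 95% interval -0.16 to 1.24; adjusted p = 0.873, edgeR). Without Lyve-1- replicate 3 and Lyve-1+ replicate 1 it was 0.06. With age as a covariate it was 0.55, and in the 10-week libraries alone 0.57 (edgeR, neither called).

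Fcgr4, an activating receptor typical of monocytes and neutrophils, was the lowest member, and its coefficient of variation in Lyve-1+ cells, 82.6%, was the largest of the members there. Its counts were 184, 308 and 33 in the Lyve-1- libraries and 260, 519 and 8 in the Lyve-1+ libraries, or 15.5, 27.4 and 4.81 CPM and 19.8, 24.9 and 1.01 CPM. In both subsets replicate 3 was far below the other two, and the 8 counts of Lyve-1+ replicate 3 have an exact 95% Poisson interval of 3.45 to 15.8 counts, which covers counting error only. Its log2 fold change was -0.06 (SE 0.98; edgeR adjusted p = 1.00), and the 95% interval of -2.15 to 2.03 puts the fold anywhere between 0.225 and 4.10. Without Lyve-1- replicate 3 and Lyve-1+ replicate 1 it was -0.75. Classical monocyte markers summed to 422 to 912 CPM in Lyve-1- and 272 to 651 CPM in Lyve-1+ libraries. Nonclassical ones summed to 676 to 1089 and 648 to 897 CPM. Both sums overlapped, with none of these markers at 0 throughout a subset. The neutrophil sums given above did not overlap. The highest of them, 625 CPM, was in Lyve-1+ replicate 3, where Fcgr4 had 8 counts. The part of monocytes and neutrophils in the Fcgr4 values was not tested.

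The inhibitory receptor Fcgr2b was at 368, 108 and 199 CPM in Lyve-1- replicates 1, 2 and 3 and at 566, 200 and 255 CPM in the Lyve-1+ replicates. B cell markers, of cells that carry Fcgr2b too, summed to 26.0 to 44.3 and 12.6 to 152 CPM, with none at 0 throughout a subset, and their part was not tested. As with Fcgr3, the 6-week library was the highest in each subset, and 7 of 9 pairs were higher in Lyve-1+. The log2 fold change was 0.60 (SE 0.47; 95% interval -0.44 to 1.63; edgeR adjusted p = 1.00). Without Lyve-1- replicate 3 and Lyve-1+ replicate 1 it was -0.09. With age as a covariate it was 0.58, and in the 10-week libraries alone 0.57 (edgeR, neither called).

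Fcer1g, the chain that the activating receptors need to reach the surface, had the smallest spread of the members in Lyve-1+ cells, with a coefficient of variation of 10.9%. It was at 156, 200 and 108 CPM in the Lyve-1- libraries and at 182, 177 and 148 CPM in the Lyve-1+ libraries, and the subsets overlapped. The log2 fold change was 0.12 (SE 0.30), and its 95% interval of -0.51 to 0.76 puts the difference between 0.701-fold and 1.70-fold (edgeR adjusted p = 1.00); the value was -0.16 with the pair of libraries that stood apart left out. Tyrobp, another signalling chain of the same kind, was at 259 ± 50.4 and 222 ± 40.1 CPM (SD, n = 3) and also did not pass the test. Markers of mast cells and basophils, which also use Fcer1g, summed to 107 to 140 CPM in Lyve-1- and 66.0 to 337 CPM in Lyve-1+ libraries, with Mcpt8 at 0 in all, and their part was not tested.

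**Figure D2:**
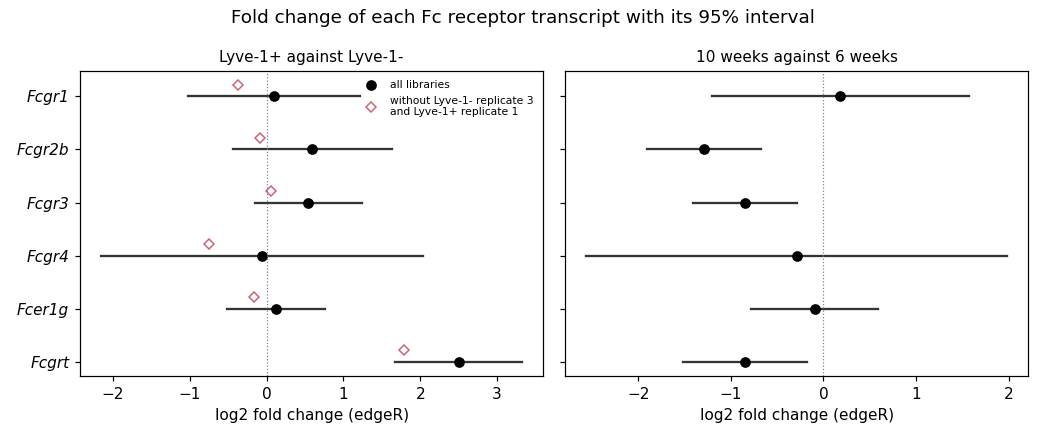
log2 fold change of each member from edgeR over all 6 libraries (points) with its 95% interval (lines), for Lyve-1+ against Lyve-1- on the left and 10 against 6 weeks on the right; diamonds show the value without Lyve-1- replicate 3 and Lyve-1+ replicate 1. On the left the Fcgrt interval lies above 0 (1.67 to 3.33), and on the right those of Fcgr2b, Fcgr3 and Fcgrt lie below 0 before adjustment for all genes.

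Per kilobase of messenger RNA, on which scale genes can be set side by side, Fcer1g led in Lyve-1- cells (207 ± 61.8 CPM per kb), followed by Fcgr3 (160 ± 61.3), Fcgr2b (59.1 ± 34.6), Fcgrt (51.2 ± 2.25), Fcgr1 (40.3 ± 30.0) and Fcgr4 (12.6 ± 8.98; SD, n = 3 throughout). In Lyve-1+ cells Fcgrt had the highest mean (290 ± 187 CPM per kb), followed by Fcgr3 (232 ± 80.6), Fcer1g (226 ± 24.7), Fcgr2b (89.4 ± 51.9), Fcgr1 (43.0 ± 19.6) and Fcgr4 (12.1 ± 10.0). Fcgr4 was the lowest member in all 6 libraries. The order among Fcgrt, Fcgr3 and Fcer1g differed between the Lyve-1+ libraries, and Fcgr2b, Fcgrt and Fcgr1 in Lyve-1- cells had overlapping ranges, as had Fcer1g and Fcgr3, so these neighbours do not differ beyond their spread.

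The balance of activating to inhibitory receptors was compared as a ratio within each library, which the scaling of libraries cannot change. The summed counts per kilobase of Fcgr1, Fcgr3 and Fcgr4 over those of Fcgr2b were 2.81, 7.67 and 2.83 in Lyve-1- replicates 1, 2 and 3 and 2.61, 4.92 and 3.23 in the Lyve-1+ replicates. The subsets overlapped, and replicate 2 was the highest in each. The means were 4.44 ± 2.80 and 3.59 ± 1.19 (SD, n = 3). The size of the ratio depends on the lengths used. Without division by length it was 1.09 to 3.55 in Lyve-1- and 1.03 to 2.10 in Lyve-1+ libraries, again with overlap. Counts of Fcgr2b and Fcgr3 over the sequence they share are also uncertain. The chain Fcer1g stood at 0.990 ± 0.232 per unit of activating receptor in Lyve-1- cells and 0.818 ± 0.167 in Lyve-1+ cells, again with overlap.

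Fcgrt set against its partner B2m gave the separation seen for Fcgrt alone. B2m was at 1570 ± 422 CPM in Lyve-1- and 1450 ± 207 CPM in Lyve-1+ cells (SD, n = 3), with a log2 fold change of -0.11 (SE 0.25; edgeR adjusted p = 1.00). The ratio of Fcgrt to B2m counts per kilobase was 0.0352, 0.0211 and 0.0318 in the Lyve-1- libraries and 0.296, 0.0870 and 0.137 in the Lyve-1+ libraries. The lowest Lyve-1+ ratio was therefore above the highest Lyve-1- ratio.

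**Figure D3:**
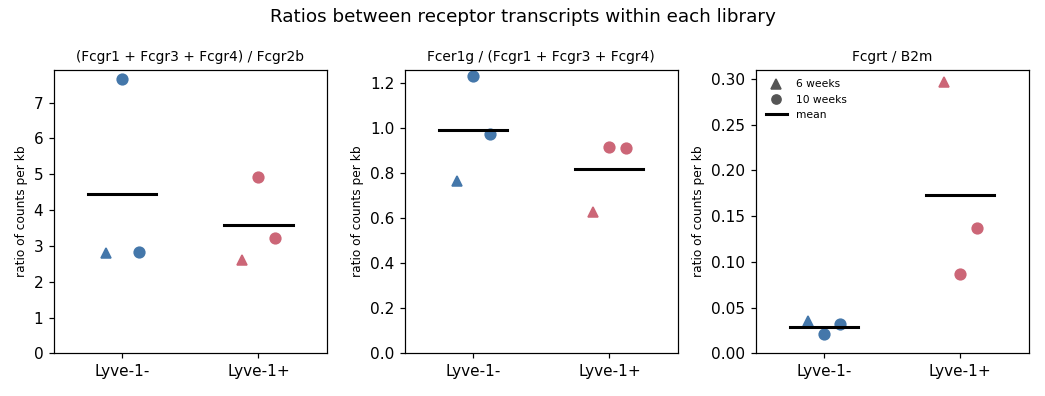
Ratios of counts per kilobase within each library (linear axes from 0; triangles, 6 weeks; circles, 10 weeks; bars, mean of 3 libraries). The activating to inhibitory ratio and the Fcer1g ratio overlap between subsets, and the Fcgrt to B2m ratio does not, with 0.0211 to 0.0352 against 0.0870 to 0.296.

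Between ages, Fcgr2b and Fcgr3 had lower values at 10 weeks than at 6 weeks in each subset, and both 6-week libraries were above all 4 10-week libraries, as they were for 5.21% of all genes tested. With the subset as a term, the log2 difference of 10 against 6 weeks was -1.29 for Fcgr2b (SE 0.29; unadjusted p = 0.000406, adjusted p = 0.334, edgeR). For Fcgr3 it was -0.85 (SE 0.26; unadjusted p = 0.00535, adjusted p = 1.00, edgeR). For Fcgrt it was also -0.85 (SE 0.32; unadjusted p = 0.016, adjusted p = 1.00, edgeR) over both subsets, while the Lyve-1- libraries alone were at 88.3 to 95.9 CPM at both ages. No member passed the test, which called 0.0225% of all genes, with 444 genes at an unadjusted p under 0.05.

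The Fcgr2b age value passed under other settings. DESeq2 gave -1.26 with an adjusted p of 0.0392, where it called 0.266% of genes, and edgeR without Lyve-1+ replicate 3 gave -1.38 with an adjusted p of 0.0193, where it called 0.174%. Leaving out the other 10-week libraries in turn gave -1.51 to -1.14 and no call. Only the 2 libraries numbered 1 were from 6-week-old mice, and age cannot be told apart from what else set those 2 apart.

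Over the 6 libraries, the members fell into differing patterns, described here without a test since all points share the same libraries. The log2 CPM of Fcgr2b and Fcgr3 had a Pearson r of 0.94, in genes that share coding sequence. Fcgr1 followed Fcer1g (r = 0.92) and Fcgr4 (r = 0.81) and had an r of -0.25 with Fcgr2b. The genes closest to Fcgrt among 8486 with a mean of at least 10 CPM were Exoc7, Rhob and Cbr2 (r = 0.99, 0.99 and 0.99). Those closest to Fcgr2b were Pam, Gng2 and Cst3 (r = 0.997, 0.994 and 0.989), those closest to Fcgr3 were Rufy1, Ppp1r15a and Aplp2 (r = 0.99, 0.98 and 0.98), and those closest to Fcgr1 were Copb1, Ikbke and Rtp4 (r = 0.98 each). For Fcgr4 they were Thoc6, Chmp1a and Ccl3 (r = 0.996, 0.992 and 0.992) and for Fcer1g Nol9, Tsc22d4 and Slc30a1 (r = 0.99, 0.99 and 0.98). These are the 3 highest of 8486 correlations for each member over 6 libraries. Values this high were found for every member, and shared regulation was not tested.

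No gene of the signalling and engulfment lists downstream of the receptors passed the test with edgeR or DESeq2. Of 25 kinases and adaptors of the activating motif, none was called by edgeR, 20 had a negative log2 fold change and the median was -0.25, beside -0.01 for all genes tested. Syk was at 993 ± 112 CPM in Lyve-1- and 818 ± 128 CPM in Lyve-1+ cells (SD, n = 3), with a log2 fold change of -0.28 (SE 0.23). The Src-family kinase Lyn had a value of -0.08 (SE 0.26), and the largest values of the list were -0.88 (SE 0.45) for the Src-family kinase Fgr and 0.65 (SE 0.41) for the kinase Btk.

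The inhibitory side was likewise not called. Of 14 phosphatases and dampers, 11 had a negative log2 fold change, with a median of -0.16. Inpp5d, the phosphatase recruited by Fcgr2b, had the largest positive value at 0.30 (SE 0.30), Ptpn6 was at -0.14 (SE 0.29) and the docking protein gene Dok1 had the largest negative value at -0.78 (SE 0.66). None of 22 genes of the phagocytic cup was called (median -0.08; Arf6 at 0.49, SE 0.28; Elmo1 at -0.83, SE 0.33), nor any of 5 subunits of the phagocyte NADPH oxidase (median -0.20; Ncf1 at -0.03, SE 0.25). Of 13 tested signalling chains and their receptors none was called (median -0.34; Trem2, a lipid-sensing receptor, at 1.17, SE 0.64; Trem3 at -1.31, SE 2.70). An unadjusted p under 0.05 was reached by 2 kinases and adaptors, 2 phosphatases and dampers, 1 gene of the phagocytic cup, 0 oxidase subunits and 1 chain or receptor, beside 1027 of 13348 genes tested, or 7.69%.

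The genes of FcRn traffic held 2 calls in opposite directions. Of 17 tested, Rab11fip5 rose in Lyve-1+ cells and Rab11fip1 fell, both encoding adaptors of the recycling-endosome GTPase Rab11. Rab11fip5 was at 82.2 ± 34.1 CPM in Lyve-1- and 282 ± 124 CPM in Lyve-1+ cells (SD, n = 3; log2 fold change 1.78, SE 0.37, adjusted p = 0.0466, edgeR). Rab11fip1 was at 695 ± 92.2 and 236 ± 102 CPM (log2 fold change -1.56, SE 0.33, adjusted p = 0.0438, edgeR). Both calls were lost when Lyve-1- replicate 3, Lyve-1+ replicate 1 or the pair was left out, in the 10-week libraries alone and without robust estimation. That of Rab11fip5 was also lost without Lyve-1- replicate 2, with DESeq2 size factors and with the total library size. The list's median was 0.32, 11 of 17 values were positive, and 4 had an unadjusted p under 0.05. Among all genes tested, 0.629% were called in either direction and 7.69% had an unadjusted p under 0.05 (edgeR).

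Of 8 tested other immunoglobulin receptors none was called by edgeR, and 1 had an unadjusted p under 0.05, beside 7.69% of all genes tested. That gene, Trim21, an intracellular antibody receptor named here after its values were seen, had 15, 47 and 136 counts in the Lyve-1- replicates and 499, 673 and 317 in the Lyve-1+ replicates, which did not overlap. Its log2 fold change was 2.14 (SE 0.82; unadjusted p = 0.0208, adjusted p = 0.462, edgeR). The counts of Fcmr and Pigr lay mostly in single libraries. The IgM receptor Fcmr (listed as Faim3) had 232 of its counts in Lyve-1+ replicate 3 and none in Lyve-1+ replicate 2, and the epithelial transporter Pigr had 369 counts in Lyve-1- replicate 2 and none in Lyve-1- replicate 1. Among immunoglobulin genes, Jchain (listed as Igj) had 0 to 202 counts and a log2 fold change of -2.17 (SE 1.89), while Igkc, Ighm and the other constant genes were not analysed here.

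**Figure D4:**
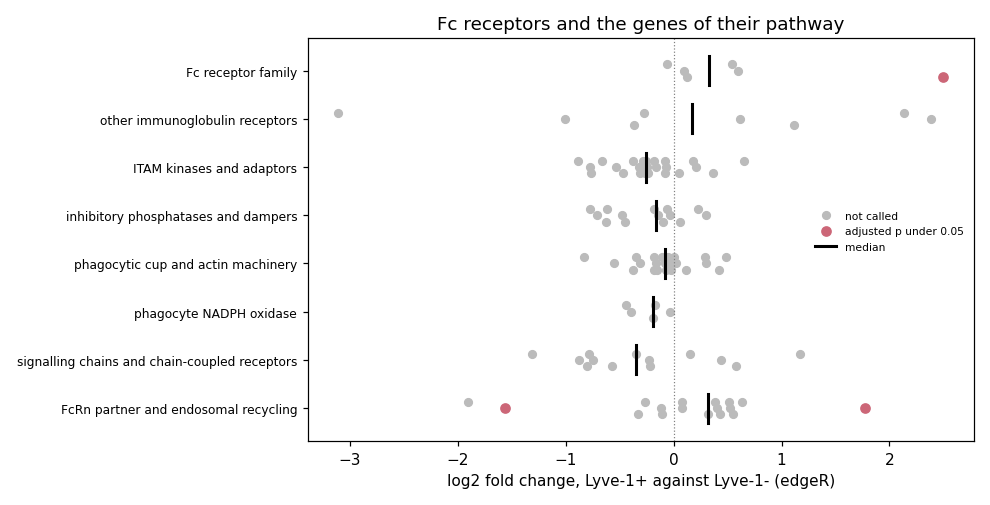
log2 fold change (edgeR, Lyve-1+ against Lyve-1-) of each tested gene in the Fc receptor family and 7 lists of its pathway, with a bar at each list's median and called genes (adjusted p under 0.05) in red. Called genes are Fcgrt, Rab11fip5 and Rab11fip1, and the median of the kinase and adaptor list is at -0.25.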

How the data were processed

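RNA from sorted cells was made into SMARTer Stranded Total RNA-seq libraries. Per the labels and the study's methods, the authors mapped read pairs (50 bp each) with HISAT2 2.0.2 on mm10 and used featureCounts 1.5.0 for gene counts, whose strand setting is not given in the sources used here. The deposited values are raw counts, without normalization. The methods also name a removal of genes under 300 bp and of a 6-week library.

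From these counts, genes were filtered with filterByExpr, scaled by TMM and tested with the edgeR 4.0.16 quasi-likelihood test (robust) over the subsets, with Benjamini-Hochberg adjustment over 13348 genes and a threshold of 0.05. SE is the fold change divided by the root of F. CPM per kb used merged exons of protein-coding transcripts (GENCODE M21; of 24061 symbols 22749 matched directly, 922 by synonym and 390 did not). The labels do not show that replicates are more than separate pools, and p-values measure the spread between them. The fit was also run on counts simulated from the means and dispersions of these libraries, with an outcome not reported here. DESeq2 1.42.0 was an alternative. Ly6g, Trac and the immunoglobulin constant genes were not analysed here.

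The members, gene lists and tests were chosen with earlier results of these data known. All 6 members were named. Each pathway list was named by its called genes or else its largest positive and negative log2 fold changes, with the direct partners of the receptors, the sort markers and the 3 genes closest to each member. Promoter sequences came from RefSeq (GRCm38.p6), where all 6 members matched. Some genes named by this rule are not reported here.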

Additional observations from a re-analysis of the deposited data

How the results depend on the processing

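Of the 235 values recomputed under other settings, 192 kept their direction and, where tested, their side of the threshold. For numbers of genes called this meant staying near the main value, such as 121 in place of 84 with at least 10 counts in every library. Another 6, all without a test, changed sign while moving by less than the spread between replicates: leaving out 1 library at a time gave log2 differences of -0.44 to 0.29 for the ratio of activating to inhibitory receptors (-0.22 without the pair named next) and medians of -0.93 to 0.41 for the other immunoglobulin receptors, and the median of the signalling chains was 0.012 without that pair. Without Lyve-1- replicate 3 and Lyve-1+ replicate 1 together, the log2 fold change was -0.37 for Fcgr1, -0.087 for Fcgr2b, -0.16 for Fcer1g and 1.78 for Fcgrt, which was then not called, so 0 members and 3 genes were called, and the median of the FcRn list was 0.057. At 10 weeks alone Fcgr1 was at -0.20 and 39 genes were called. Leaving out 1 library at a time gave -0.27 to 0.89 for Fcgr1, -0.64 to 0.59 for Fcgr4, -0.080 to 0.36 for Fcer1g and 1.84 to 2.75 for Fcgrt, with 0 to 1 member and 19 to 153 genes called, and medians of -0.42 to -0.22 for the oxidase and -0.85 to -0.19 for the signalling chains. For age, it gave -0.46 to 0.51 for Fcgr1, -1.51 to -1.14 for Fcgr2b, -1.87 to 0.18 for Fcgr4 and -0.33 to 0.056 for Fcer1g, and DESeq2 gave -1.26 for Fcgr2b, past the threshold. In place of 84, the number of genes called was 254 with DESeq2, 289 with no filter, 130 with age as a covariate, 47 without robust estimation, 15 under the limits of the study applied to edgeR, which called 0 members, and 145 under those limits applied to DESeq2, which called 1. Leaving out libraries also changed the balance of ages between the subsets. Beyond that and fewer genes or samples, the causes were not tested.

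No pairing by number was seen in correlations of deviations from the subset means: same-numbered libraries had values of -0.046, -0.002 and -0.147. No library correlated best with its own number. With so few libraries a subset, these values cannot exclude that same-numbered libraries came from the same mice. The replicate block called 270 genes, with Fcgrt again the 1 member called. Fcgr4 has no value under a minimum of 10 counts in every library, as Lyve-1+ replicate 3 had 8. Removal of genes under 300 bp, a ratio over all annotated exons, the ratio without the pair and the limits applied to DESeq2 were added after seeing the data.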
